A study of Mus musculus with 6 samples.

Results

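The endothelin system was examined in mouse corneal keratocytes, the resident mesenchymal cells of the corneal stroma, which lay down its collagen. Its members were taken by gene symbol: the ligands Edn1 and Edn3, the converting enzymes Ece1 and Ece2, and the receptors Ednra and Ednrb. Of these 6 genes, 5 had a row among the 17606 genes of the expression table. Ece2 was not analysed here, and neither was the remaining ligand gene, Edn2. The members were proposed with the difference between the groups in view, so their values are given as a description and carry no test.

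Bulk RNA-seq was performed on keratocytes sorted by flow cytometry from 3 control and 3 Ptch1-ablated samples. Per the labels, mice of both groups were 10 weeks old and received 3 doses of tamoxifen over a treatment of 1 month. The ablated mice carried Prrx1-CreERT, a tamoxifen-dependent Cre recombinase expressed from Prrx1, together with floxed Ptch1 alleles. Ptch1 encodes the Hedgehog receptor that keeps the pathway silent, so the comparison asked what constitutive Hedgehog signaling does to adult keratocytes. The labels name the other group only as ctrl and, in the sample titles, WT, and whether these mice carried the Cre was not given in the sources used here. According to the study's methods, the replicates of a group were separate biological samples. Prrx1-CreERT also acts in corneal endothelial cells, so deletion in these mice need not be restricted to keratocytes.

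Endothelins are short secreted peptides cut from larger precursors. Proprotein convertases such as furin release an inactive intermediate called big endothelin, and endothelin-converting enzymes, membrane-bound zinc proteases, trim it to the active peptide. The type A receptor, encoded by Ednra, binds endothelin-1 far more tightly than endothelin-3, whereas the type B receptor, encoded by Ednrb, binds all endothelins alike and also clears endothelin-1. Both receptors act through G proteins. The system is known for vasoconstriction and for guiding cranial neural crest, from which corneal keratocytes descend, through Ednra, and melanocyte and enteric neuron precursors through Ednrb.

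Library totals were 20258439 to 24788063 counts in the control libraries and 21729860 to 23530508 in the ablated ones. A count of 0 in a library therefore allowed up to 3 counts, or 0.121 to 0.158 CPM (counts per 1000000 counts of the scaled library total), a limit that covers counting error only. The labels were checked on Ptch1 itself and on 2 Hedgehog targets. Gli1 and Hhip were higher in every ablated library, by 7.15 ± 0.54 and 9.97 ± 0.27 on the log2 scale (SE; adjusted p = 5.35e-06 and 2.00e-09, edgeR). Ptch1 RNA was higher too, by 4.47 ± 0.35 (adjusted p = 6.83e-06), so total reads of Ptch1 did not show the deletion, and which exons were deleted was not examined. The first principal component of the libraries (45.1% of the variance) separated the groups, and the second (22.2%) was highest in control replicate 1 and ablated replicate 2.

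The sorted cells carried the keratocyte markers Kera, Lum and Aldh3a1 at 13452 ± 860, 11298 ± 1301 and 22167 ± 1446 CPM in the controls (mean ± SD, n = 3), whereas Ptgds, also on the marker list, stayed under 2 CPM in every library. In the ablated group Kera, the keratan sulfate proteoglycan of the stroma, fell to 4472 ± 918 CPM (log2 fold change -1.59 ± 0.13, adjusted p = 1.08e-05), and Aldh1a1, a corneal aldehyde dehydrogenase, fell by 1.74 on the log2 scale (adjusted p = 1.08e-05). Aldh3a1, the most abundant marker of the list, was lower too, by under 2-fold (log2 fold change -0.63 ± 0.09, adjusted p = 0.000727), with no overlap. Lum did not pass the test (-0.07, adjusted p = 0.812). The 5 markers summed to 46284 to 48121 CPM in the controls and 26574 to 32889 CPM in the ablated libraries, lower together with Ednrb, and their part in that difference was not tested. Kera, Lum and Aldh3a1 thus remained abundant in both groups, while the 3 markers that passed the test were lower in the ablated group.

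Among the 5 endothelin genes, Ednrb, Edn3 and Ece1 differed between the groups with no overlap. Ednrb was the most abundant of them in the controls and was 14.3-fold lower in the ablated libraries, while the interval for Ednra included no difference. Ece1 was 5.50-fold higher and became the most abundant member. Edn3 had 0 to 25 counts in the controls and lay near the level of Edn1, the other ligand, in the ablated libraries. Of the 5 members, 2 (Ednrb and Ece1) were among the genes called, meaning a fold of 2 or more with an adjusted p up to 0.05. This was true of 5.49% of the 13888 genes tested, and of 8.48% without the fold minimum (4.68% higher and 3.8% lower), under which the same count of members passed. For 3 members (Ednrb, Ece1 and Edn3) the CPM values of the groups did not overlap, which held for 27.4% of all genes tested. Because the members were chosen on this contrast, nothing is read from these counts.

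**Figure D1:**
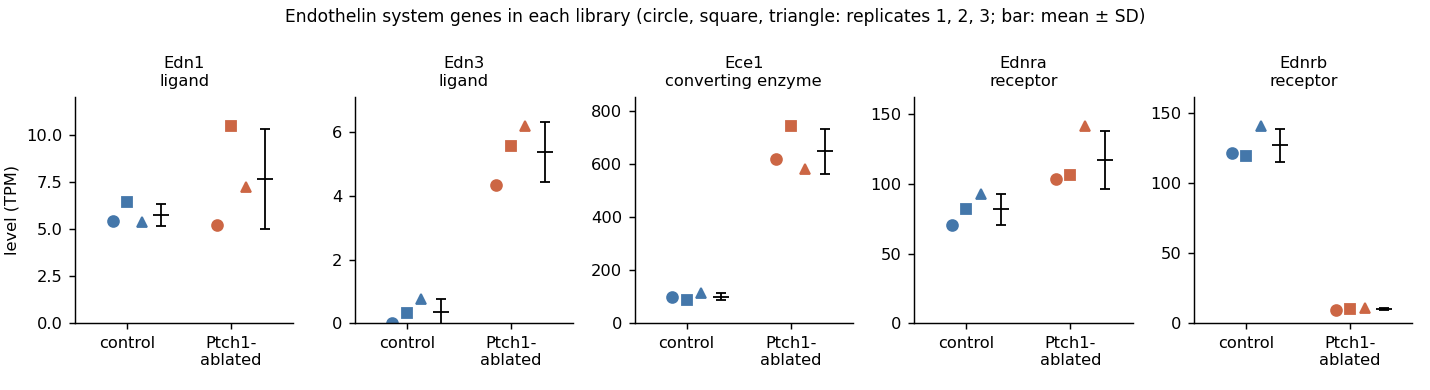
Level of each endothelin gene in each library in TPM (y axis, transcripts per 1000000 transcripts, corrected for gene length, with a separate linear scale for each gene), with control libraries in blue and Ptch1-ablated libraries in orange, and bars at the mean ± SD of 3 libraries. Ednrb lies between 119 and 140 TPM in the controls and between 9.73 and 10.9 in the ablated libraries, while the groups overlap for Edn1. The lower end of the control bar of Edn3 is cut at 0.

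The 2 ligands share a compact peptide fold held by disulfide bridges, and their coding sequences show where they differ. The stretch that encodes the mature peptide lies within exon 2 of 5 in both genes, at chr13:42303649-42303711 for Edn1 and chr2:174761749-174761811 for Edn3 (GRCm38, plus strand, GENCODE annotation). The sequences are shown because the ligand pair is where the receptors discriminate, and capitals mark the codons of the 4 cysteines that form the bridges.
Edn1: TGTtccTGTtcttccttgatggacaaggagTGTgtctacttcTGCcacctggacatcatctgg
Edn3: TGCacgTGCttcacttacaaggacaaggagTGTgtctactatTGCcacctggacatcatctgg
Of the 63 bases, 50 (79.4%) are equal, and 15 of the 21 encoded residues are equal. The differences gather at the start: of the first 7 residues 2 are equal, whereas all of the last 6 are. The annotated precursors are 202 residues long for Edn1 and 214 for Edn3, so most of each precursor is removed during processing.

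Edn1 (Entrez 13614) encodes endothelin-1, the main vasoconstrictor of the family. Control replicates 1 to 3 held 115, 118 and 115 counts of it, and the ablated replicates, in the same order, 102, 192 and 155 counts. Per length this was 5.45, 6.42 and 5.40 TPM in the controls and 5.20, 10.5 and 7.25 TPM in the ablated libraries. Ablated replicate 2 was the highest and ablated replicate 1 the lowest of all 6, so the groups overlapped. Mean CPM was 5.51 ± 0.62 and 6.25 ± 1.90 (SD, n = 3 per group), a log2 fold change of 0.18 ± 0.46 (SE; 95% interval -0.83 to 1.19). That interval reaches from a 1.77-fold lower to a 2.28-fold higher level. The sign of the estimate rested on ablated replicate 2, without which it was -0.05.

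Edn3 (Entrez 13616) encodes endothelin-3, the ligand that acts mainly through Ednrb. It was counted 0, 9 and 25 times in the controls and 129, 155 and 200 times in the ablated libraries. On the per-length scale these were 0, 0.32 and 0.78 TPM against 4.35, 5.57 and 6.18 TPM. Every ablated library lay above every control library, and control replicate 1 was at a count of 0. Mean CPM was 0.52 ± 0.55 in the controls and 6.71 ± 1.28 in the ablated group, a log2 fold change of 3.66 ± 1.05 (95% interval 1.38 to 5.95), or 12.7-fold (2.60 to 61.7). The controls held 34 counts of Edn3 in all.

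The estimate for Edn3 depended on the settings. Leaving out control replicate 1, the library at 0, gave a log2 fold change of 3.08, and leaving out control replicate 3 gave 4.83. In the remaining single-library omissions the estimate was 3.51 to 3.79. Edn3 was not called in the edgeR fit and was called in 8 of the 15 alternatives. Because the members were chosen on this contrast, nothing is read from these calls. All 16 estimates were above 0.

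The 2 ligands thus differed in level in the controls and lay close in the ablated libraries. Edn3 made up 0, 4.75 and 12.6% of the summed TPM of both ligands in the controls, against 45.5, 34.7 and 46.0% in the ablated libraries. Summed ligand TPM was 6.12 ± 0.65 in the controls and 13.0 ± 3.26 in the ablated group (SD, n = 3), and the groups did not overlap. By rank, Edn1 stood at the 41.8 to 50.5 percentile of TPM among the genes of a library. Edn3 stood at the 9.28 to 25.5 percentile in the controls and at 39.7 to 44.6 in the ablated libraries.

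Ece1 (Entrez 230857) encodes endothelin-converting enzyme 1, which makes the final cut of big endothelin and also trims other peptides such as bradykinin. It was counted 4988, 3827 and 5679 times in the controls and 28381, 31899 and 29028 times in the ablated libraries. Per length the values were 101, 89.2 and 114 TPM in the controls and 621, 744 and 582 TPM in the ablated libraries. Its lowest ablated value was far above its highest control value. Mean CPM was 226 ± 23.8 and 1245 ± 98.0 (SD, n = 3), and the log2 fold change was 2.46 ± 0.13 (SE; 95% interval 2.17 to 2.74), a 5.50-fold higher level (4.51 to 6.70). Its standing among all genes moved from the 90.2 to 92.7 percentile of TPM to the 98.9 to 99.2 percentile. The share of all counts that fell on Ece1 was 0.0189 to 0.0229% in the controls and 0.123 to 0.147% in the ablated libraries. The log2 fold change of Ece1 was 2.38 to 2.68 over the 15 alternatives.

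Ednra (Entrez 13617) encodes the endothelin-1 receptor of contractile and neural crest-derived cells. It was counted 2669, 2693 and 3524 times in the controls and 3624, 3511 and 5409 times in the ablated libraries. On the CPM scale the control values were 122, 142 and 154 and the ablated values 154, 149 and 218. These ranges overlapped, with ablated replicate 3 well above the other 5 libraries. Mean CPM was 139 ± 16.0 and 174 ± 38.2 (SD, n = 3), a log2 fold change of 0.32 ± 0.18 (95% interval -0.07 to 0.71). The interval runs from 0.952-fold to 1.63-fold of the control level. On the TPM scale, which is not corrected for library composition, the groups did not overlap: 70.6, 81.9 and 92.5 TPM against 103, 107 and 141 TPM. The log2 fold change of Ednra was 0.12 without ablated replicate 3 and 0.12 to 0.51 over all alternatives.

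Ednrb (Entrez 13618) encodes the receptor that binds all endothelins and that melanocytes, glia and vascular endothelium are known to use. It was counted 4525, 4018 and 5475 times in the controls and 335, 378 and 392 times in the ablated libraries. Per length this was 121, 119 and 140 TPM in the controls and 9.73, 10.3 and 10.9 TPM in the ablated libraries. Replicates of each group lay close together and the groups were far apart. Mean CPM was 220 ± 17.5 against 15.4 ± 0.96 (SD, n = 3), a log2 fold change of -3.84 ± 0.17 (SE; 95% interval -4.20 to -3.47), which is 14.3-fold lower (11.1 to 18.4). Of the 13888 tested genes, 49 had a more negative estimate. The gene passed from the 92.8 to 94.3 percentile of TPM in the controls to the 50.2 to 53.8 percentile in the ablated libraries, that is, from among the most abundant genes to the middle of the list. Its log2 fold change was -3.88 to -3.50 over the 15 alternatives. In sorted bulk RNA, fewer cells that express a gene and less of its RNA per cell cannot be told apart, and this holds for every member.

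**Figure D2:**
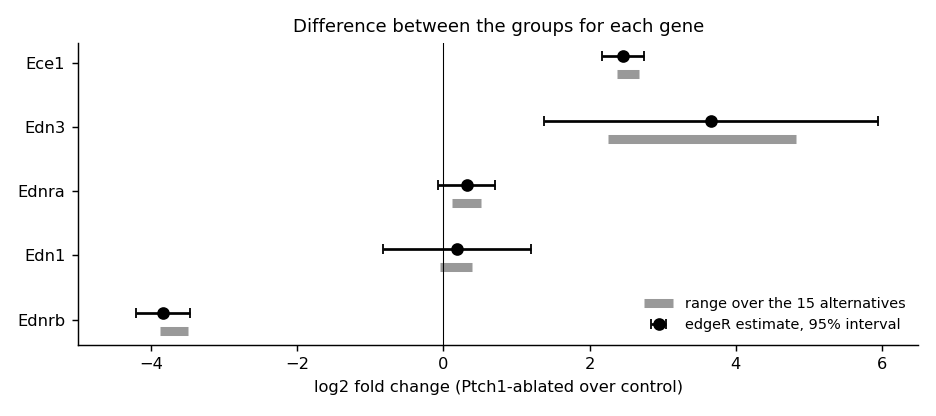
Log2 fold change (Ptch1-ablated over control, x axis) of each endothelin gene, ordered by gene on the y axis, with black points and whiskers for the edgeR estimate and its 95% interval and grey bars for the range over the 15 alternatives. Ednrb lies at -3.84 and Ece1 at 2.46 with narrow intervals, Edn3 at 3.66 with a wide one, and the intervals of Ednra and Edn1 include 0.

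Both the mix of the receptors and their summed level differed between the groups. Ednrb contributed 63.2, 59.3 and 60.3% of the summed TPM of both receptors in the control libraries, against 8.61, 8.80 and 7.14% in the ablated ones. Ednra transcripts per Ednrb transcript, as a ratio of TPM, averaged 0.643 ± 0.054 in the controls and 11.3 ± 1.46 in the ablated group (SD, n = 3). The summed receptor level was 209 ± 21.5 TPM in the controls and 127 ± 21.6 TPM in the ablated group, with no overlap. In other words, most of the receptor RNA was Ednrb in every control library and Ednra in every ablated library.

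**Figure D3:**
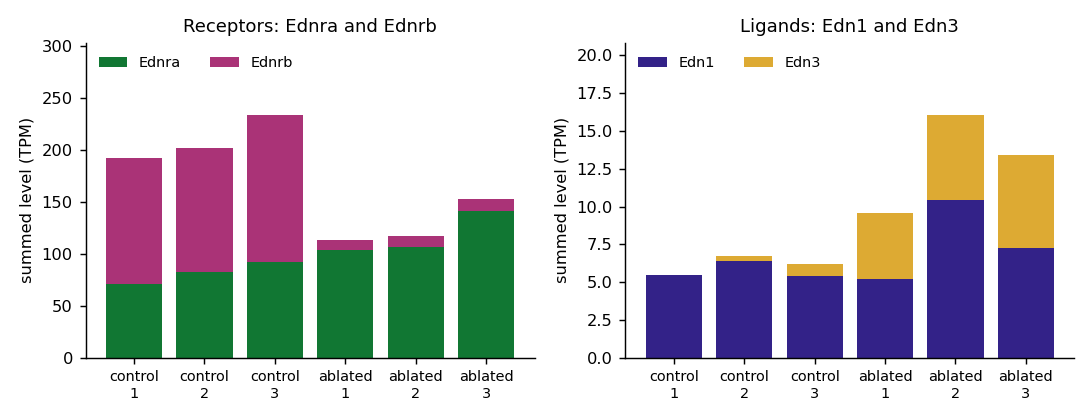
Stacked TPM (y axis, from 0) of the 2 receptors (left) and the 2 ligands (right) in each of the 6 libraries (x axis). Ednrb makes up 59.3 to 63.2% of receptor TPM in the controls and 7.14 to 8.80% in the ablated libraries, and Edn3 makes up 0 to 12.6% of ligand TPM in the controls and 34.7 to 46.0% in the ablated libraries.

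Ordered by TPM, the controls ran Ednrb, Ece1, Ednra, Edn1 and Edn3. The ranges of Ece1 and Ednra overlapped between libraries, although Ece1 was higher within each of the 3. In the ablated libraries the order was Ece1, Ednra, Ednrb, Edn1 and Edn3. There the ranges of Ednrb and Edn1 overlapped, with Ednrb higher in 2 of 3 libraries, and so did those of Edn1 and Edn3, with Edn1 higher in 3 of 3. The remaining neighbours were apart. Ece1 transcripts per Ednrb transcript went from 0.798 ± 0.045 to 63.2 ± 9.33 on the TPM scale (SD, n = 3).

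Genes around the endothelin system were listed by role, 95 in all, of which 81 had enough counts to be tested. Of these 81 genes, 7 were called higher and 3 lower in the ablated group, against 3.36% and 2.13% of all tested genes. The median log2 fold change of the listed genes was 0.24 and that of all tested genes 0.0046. Without ablated replicate 3 the number called was 6 instead of 10. The lists were chosen with earlier results of these data known, so nothing is read from these counts or from the median. Adjusted p-values below are from edgeR over all 13888 genes, and values after ± are SE.

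The list of enzymes that process or degrade endothelins had 1 gene called higher and 1 lower of 7 tested. Mme, which encodes neprilysin, the cell surface peptidase that degrades endothelin-1 and other small peptides, was at 300, 438 and 487 CPM in the controls and at 110, 118 and 129 CPM in the ablated libraries. It fell by 1.78 ± 0.18 on the log2 scale (adjusted p = 5.61e-05), with no overlap, and passed the test in each of the 15 alternatives. Cma1, a mast cell protease gene, rose from 16.8 ± 1.79 to 36.6 ± 4.99 CPM (SD, n = 3; log2 fold change 1.12 ± 0.23, adjusted p = 0.00989), and did not pass without ablated replicate 3 (adjusted p = 0.0628). Whether the mouse enzyme cuts big endothelin-1 was not examined here. The convertases Furin, Pcsk5, Pcsk6 and Pcsk7 did not pass, with log2 fold changes of 0.24, 0.75, 0.96 and 0.17. Neither did Ctsa, the lysosomal cathepsin A and the most abundant gene of this group (403 ± 5.65 and 294 ± 44.3 CPM, adjusted p = 0.0704).

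In the signaling chain beneath the receptors, few genes passed the test. None of 11 G protein alpha subunits passed the test, the most abundant being Gna11 at 174 ± 7.89 and 150 ± 5.84 CPM (SD, n = 3; adjusted p = 0.420). Of 21 genes for phospholipase C, calcium release and protein kinase C, 0 were called, and 3 passed the adjusted p alone, Plcb3 and Plcb4 among them. Plcb3, a G protein-activated phospholipase, rose by 0.91 ± 0.23 on the log2 scale (adjusted p = 0.0290). Plcb4, another phospholipase of that class, fell by 0.80 ± 0.22 (adjusted p = 0.0391). These passed in 10 and 5 of the 15 alternatives. Plcb3 failed when replicate 1 or 2 of either group was left out (adjusted p up to 0.146). Plcb4 failed when any 1 library was left out (up to 0.201). Of all 13888 genes tested, 5.49% were called in edgeR and 8.48% passed the adjusted p alone. By other criteria, 2854 of them had an unadjusted p under 0.05, and DESeq2 called 961 genes in all.

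Of 10 genes for myosin contraction and its control, 1 was called and 1 more passed the adjusted p. Mylk, the kinase that activates myosin, rose from 17.7 ± 1.00 to 37.0 ± 4.04 CPM (SD, n = 3; log2 fold change 1.07 ± 0.22, adjusted p = 0.0104), but had an adjusted p of 0.0599 without ablated replicate 1. Myl9, a myosin regulatory light chain, rose by 0.81 ± 0.17 on the log2 scale (adjusted p = 0.00872), with an adjusted p of up to 0.0562 when control replicate 2 or ablated replicate 3 was left out. Rhoa, the most abundant of the group, was at 296 ± 15.9 and 288 ± 11.8 CPM (adjusted p = 0.920).

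Among 13 genes that quench receptor signaling, 2 were called higher and 2 more passed the adjusted p. Rgs16, a regulator that speeds up the G protein off switch, was at 34.8, 34.8 and 43.6 CPM in the controls and at 98.3, 150 and 139 CPM in the ablated libraries. Its log2 fold change was 1.77 ± 0.20 (adjusted p = 0.000136), and it passed in each of the 15 alternatives. Grk3, a kinase that marks active receptors for arrestin, rose by 1.38 ± 0.29 (adjusted p = 0.0104) and had an adjusted p of up to 0.0539 without ablated replicate 2 or 3. Arrb1, one of the beta-arrestins, rose by 0.84 ± 0.20 (adjusted p = 0.0226) and passed in 11 of 15 alternatives, failing without control replicate 2 or 3 or without ablated replicate 1 or 3 (adjusted p up to 0.107). Rgs5, the most abundant of this group and also a pericyte marker, rose from 232 ± 10.3 to 417 ± 22.1 CPM (SD, n = 3; log2 fold change 0.85 ± 0.12, adjusted p = 0.000920).

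Neural crest genes that Ednra controls in the embryonic jaw gave no call. Of 12 listed, 7 had a row and 4 were tested, with log2 fold changes of 0.23 to 1.57, all above 0, and 0 passing. Their SE ran from 0.26 to 1.84, so the lack of calls does not show equal levels in the groups. Mef2c, the most abundant, was at 45.6 ± 17.1 and 53.6 ± 4.10 CPM (SD, n = 3; adjusted p = 0.700). Dlx5, a classical target of the pathway, was at a count of 0 in all controls and at 14, 47 and 0 in the ablated libraries, too few to be tested.

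Receptors for other vasoactive peptides had 3 genes called higher and 2 lower of 15 tested, against 3.36% and 2.13% of all tested genes. Agtr2, the type 2 angiotensin receptor, was counted 7811, 7661 and 11260 times in the controls and 39566, 40989 and 48561 times in the ablated libraries. It rose from 418 ± 68.5 to 1794 ± 142 CPM (SD, n = 3; log2 fold change 2.10 ± 0.14, adjusted p = 2.08e-06) and passed in each alternative. Agtr1a, the type 1 receptor through which angiotensin raises blood pressure, rose by 2.11 ± 0.50 on the log2 scale (adjusted p = 0.0209) from 28, 50 and 85 to 294, 190 and 310 counts. It had an adjusted p of up to 0.104 when control replicate 2 or ablated replicate 1 or 3 was left out. Bdkrb2, the constitutive bradykinin receptor, rose by 4.35 ± 0.77 (adjusted p = 0.00362) from 5, 6 and 9 to 111, 112 and 248 counts, with an adjusted p of 0.0563 without ablated replicate 3.

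In the same group, Vipr2, a receptor for vasoactive intestinal peptide, fell by 2.04 ± 0.36 on the log2 scale (adjusted p = 0.00342) and passed in each alternative. Npy1r, a neuropeptide Y receptor, fell by 1.25 ± 0.34 (adjusted p = 0.0430) and passed in 6 of 15 alternatives, failing when any library but ablated replicate 2 was left out, with adjusted p-values of up to 0.151. Calcrl, the shared subunit of the calcitonin gene-related peptide and adrenomedullin receptors, fell by 0.71 ± 0.16 (adjusted p = 0.0137), under 2-fold, and passed in 10 of 15, failing among others without control replicate 2 or ablated replicate 1 (adjusted p up to 0.103).

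**Figure D4:**
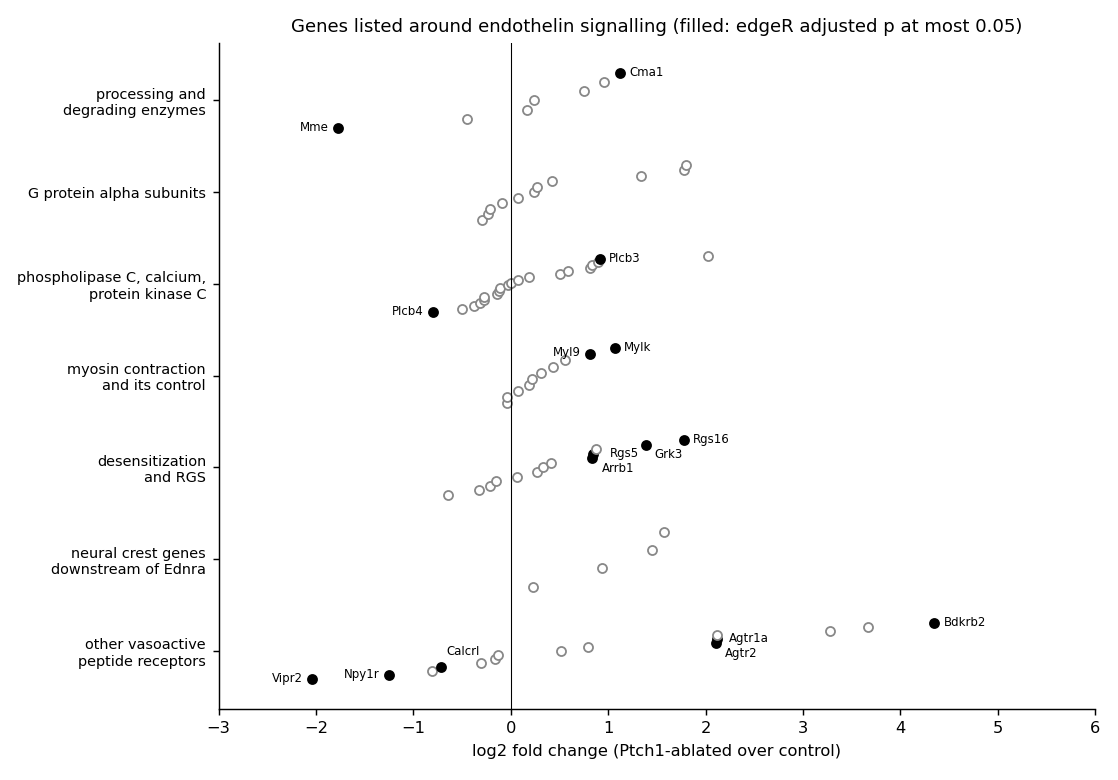
Log2 fold change (Ptch1-ablated over control, x axis) of tested genes listed around endothelin signaling, grouped by role on the y axis, where filled and named points passed the adjusted p of 0.05 in edgeR and open points did not. Vertical offsets within a group only separate the points. Mme at -1.78 lies apart from the other enzymes, and no G protein alpha subunit is filled.

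Cells other than keratocytes use endothelin as well, and their markers were summed in each library. Vascular endothelial markers, which mark a main source of Edn1, summed to 756 to 956 CPM in the controls and 1136 to 1234 CPM in the ablated libraries, with 5 of 10 called higher. Of these, Vwf rose from 80.5 ± 8.54 to 290 ± 28.2 CPM (SD, n = 3; adjusted p = 1.03e-05) and Cdh5 from 10.6 ± 2.66 to 28.4 ± 3.10 CPM (adjusted p = 0.00785). Kdr, the most abundant of the list, did not pass the test and was lower in the ablated group, at 553 ± 87.3 and 420 ± 15.7 CPM (SD, n = 3; adjusted p = 0.112), with no overlap. Mural cell markers summed to 955 to 1135 CPM and 1390 to 1465 CPM, with 2 of 9 called higher (Kcnj8 and Mcam). All 9 estimates were positive, and 4 markers passed the adjusted p while 5 did not. Among the latter was Pdgfrb, the most abundant of the list, at 686 ± 101 and 738 ± 45.1 CPM (SD, n = 3; adjusted p = 0.735), with overlap. The mural sum contains Rgs5, which is on both lists. Neither sum overlapped between the groups. Both sums were thus higher in the ablated group together with Edn3, Ece1, Mylk and Myl9, while Ednrb was lower. The part of vascular and mural cells in these results was not tested.

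Schwann cell markers summed to 177 to 190 CPM in the controls and 226 to 244 CPM in the ablated libraries, with 2 of 7 tested called higher. One of them, Erbb3, the neuregulin receptor of Schwann cells, rose from 12.8 ± 0.99 to 27.6 ± 7.19 CPM (SD, n = 3; adjusted p = 0.0261). Melanocyte markers, which mark a classical Ednrb-bearing lineage, summed to 18.1 to 23.0 CPM in the controls and 14.6 to 19.2 CPM in the ablated libraries, with 0 of 4 tested called. Most of that sum was Mitf, at 15.3 ± 1.90 and 10.1 ± 3.90 CPM, while the pigment genes Mlana and Slc45a2 had at most 5 counts in a library and Dct was counted in control replicate 2 alone. Ednrb was at 220 CPM in the controls, and no melanocyte marker but Mitf averaged above 3 CPM in either group. The part of Schwann cells and melanocytes in the differences of the members was not tested.

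Corneal epithelial markers were low throughout, at 39.6 to 69.0 CPM summed in the controls and 2.68 to 9.68 CPM in the ablated libraries. Krt5, Krt14 and Krt15, keratins of basal and limbal epithelium, were called lower among 6 tested, and Krt12, the keratin of corneal epithelium, was called higher from counts of 0 in all controls to 21, 49 and 52. Corneal endothelial markers summed to 1110 to 1259 CPM and 806 to 1153 CPM, with 1 of 6, Col8a1, called higher. Of the 6 estimates, 4 were positive and 2, those of Tfap2b and Col8a2, negative. Tfap2b was lower by under 2-fold, at 442 ± 55.9 and 304 ± 24.8 CPM (SD, n = 3; adjusted p = 0.0298). Col8a2, the most abundant of the list, was at 699 ± 69.1 and 536 ± 163 CPM (adjusted p = 0.286). Leukocyte markers gave 931 to 1022 CPM and 846 to 1075 CPM with 0 of 7 called. The epithelial sum was lower in the ablated group together with Ednrb, and its part in that difference was not tested either.

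**Figure D5:**
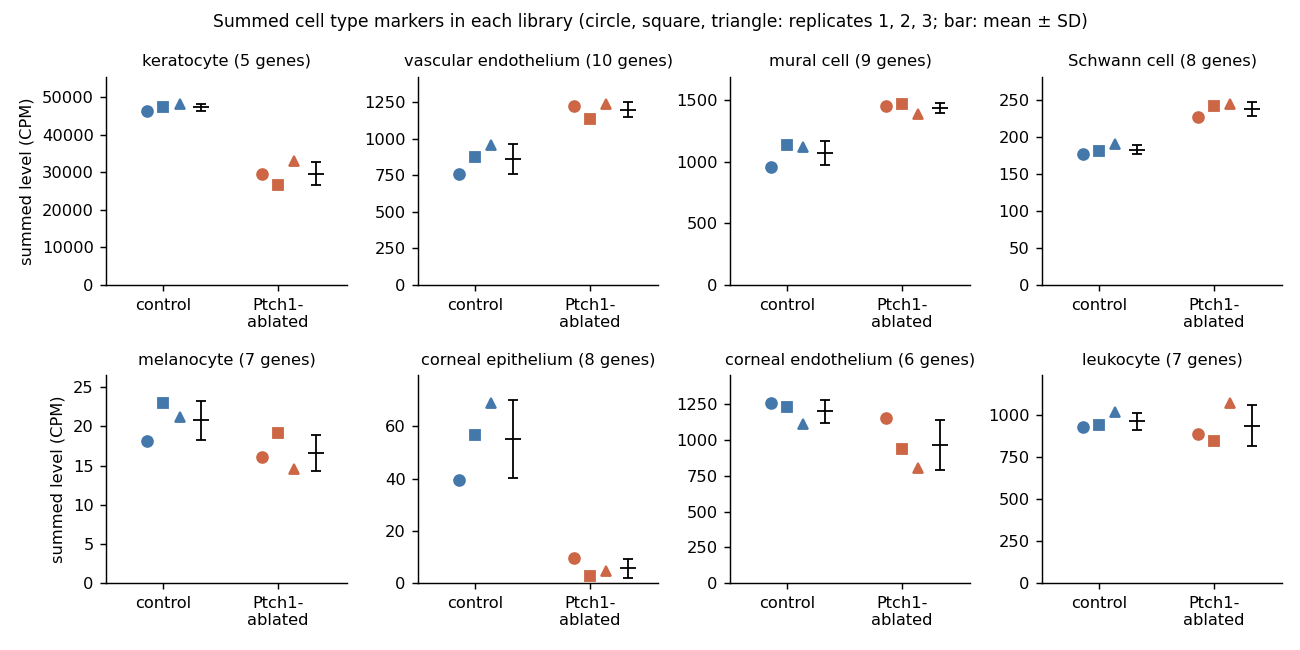
Summed CPM (y axis, from 0, a separate scale for each panel) of the markers of 8 cell types in each library, control in blue and Ptch1-ablated in orange, with bars at the mean ± SD of 3 libraries. The vascular, mural and Schwann cell sums are higher in every ablated library than in any control, the keratocyte and epithelial sums are lower, and the corneal endothelial, leukocyte and melanocyte sums overlap in at least 1 library.

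Finally, the genes whose log2 CPM followed each member most closely across the 6 libraries were named by Pearson's r, as a description over libraries that share 2 groups. Close to Ednrb were Mest, an imprinted mesodermal gene (r = 0.998), and Ctsl, a lysosomal protease (r = 0.997). Close to Ece1 were the scaffold gene Akap12 (r = 0.998) and Myc (r = 0.997). For Edn3 the closest were Slc38a4 (r = 0.997), Stard8 (r = 0.995) and Stxbp6 (r = 0.995). These members differ between the groups, and so do the genes nearest to them: 560, 600 and 529 genes had an r above 0.9 with Ednrb, Ece1 and Edn3. Ednra and Edn1, whose intervals include 0, had 48 and 43 such genes, led by Tardbp (r = 0.997), Kdm6a (r = 0.982) and Dnaja2 (r = 0.974) for Ednra and by LTO1 (r = 0.973), Arhgef11 (r = 0.968) and Tbc1d2b (r = 0.967) for Edn1.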

How the data were processed

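RNA of sorted keratocytes from 3 control and 3 Ptch1-ablated samples was analysed, with groups and replicate numbers read from the sample titles. The authors aligned reads with Bowtie2 (2.2.5) and quantified genes with RSEM (1.2.12), and their processing notes name the build mm9. The labels name an Illumina TruSeq kit, whereas the study's methods describe ribosomal RNA depletion and a BGISEQ platform. The annotation release and strandedness were not given in the sources used here, so genes that overlap others are uncertain. The deposited table holds expected counts per gene, of which 18.6% were not whole since RSEM shares a read among the genes it matches, TPM values scaled by the authors for effective length and to a common sum, and FPKM values of the authors, which were not used in any comparison. The 6 columns of group averages were not used.

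Expected counts were rounded, filtered with filterByExpr (13888 genes kept), scaled by TMM and compared with edgeR 4.0.16 (quasi-likelihood, two-sided, Benjamini-Hochberg over all genes tested) in R 4.3.3. A gene was called where its fold reached 2 with an adjusted p up to 0.05, as in the study's methods. This gave 763 called genes. SE and 95% intervals came from the same fit. The calls of the test, not the intervals, were checked on simulated data. Depth was 20258439 to 24788063 counts. Marker and role lists and the members themselves were chosen with earlier results of these data known. Named from each role list were genes with an adjusted p of at most 0.05, up to 4 in each direction, and the most abundant gene. Likeness was computed among genes that averaged 100 counts or more, and the 3 closest were named. Some genes that these rules select are not reported here. The 15 alternatives were RLE, upper quartile and total-count scaling, DESeq2 1.42.0, no filter, a mean count of at least 50, limma 3.58.1 on log2(TPM + 1) and log2(TPM + 0.1), each library left out (6 settings), and the replicate number as a block. A further count used the adjusted p with no fold minimum. Coding sequences came from the GENCODE annotation of GRCm38, matched by gene symbol.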

Additional observations from a re-analysis of the deposited data

How the results depend on the processing

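Among the members, the sign of the estimate changed for Edn1 alone, without ablated replicate 2 (-0.05). Scaling by library totals only gave -3.66 for Ednrb and 2.63 for Ece1. On limma with log2(TPM + 1), Ednrb was at -3.50, Edn3 at 2.25 and Ece1 at 2.67, and with log2(TPM + 0.1) Ednrb was at -3.61 and Ece1 at 2.68. These 3 settings moved the median of all genes to 0.17, 0.19 and 0.22 on the log2 scale, because they leave out or lack the composition scaling, and raised the share of called genes that were higher from 61.2% to 73.0, 73.1 and 73.4%. Both limma settings called 16 of the genes listed around the pathway against 10, and dropping the fold minimum gave 17 such genes and 1178 genes in all against 763. Leaving out 1 library at a time gave 6 to 13 called pathway genes, 611 to 756 called genes, and log2 fold changes of -3.88 to -3.77 for Ednrb, 3.08 to 4.83 for Edn3, 2.38 to 2.53 for Ece1, 0.12 to 0.42 for Ednra and -0.05 to 0.39 for Edn1.

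With the replicate number as a block, 663 genes were called, 9 pathway genes among them. The log2 fold changes were then -3.83 for Ednrb, 4.34 for Edn3, 2.46 for Ece1, 0.30 for Ednra and 0.14 for Edn1. Deviations of same-numbered libraries from their group means correlated at -0.0461, -0.0489 and 0.0388 over genes. Not every sample correlated best with its own number. With 3 libraries per group, these values cannot tell whether same-numbered samples share more than a number. The 3 replicates per group, and for Edn3 the 34 control counts, limit the precision.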
